A study of Mus musculus with 16 samples.

Results

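Aqp5, which codes for a water channel of the apical membrane of secretory epithelia, was followed together with Epcam, Krt8, Krt18, Krt14, Krt5, Elf5, Csn3, Ltf and Wap, genes of mammary epithelium. These 10 genes were chosen by name from the 54752 gene IDs of a count table made from inguinal white adipose tissue (iWAT), and the question put to the data was whether Aqp5 follows the level of the epithelial genes from library to library. The table held 16 RNA-seq libraries, 4 for each of 4 genotypes, from mice labelled as females of 90 days on the C57BL/6J background. WT mice carried neither mutation. Lepob/+ mice had 1 ob allele of the leptin gene, a loss-of-function allele present in every cell, SOD1G93A mice carried the mutant human SOD1 transgene used as a model of amyotrophic lateral sclerosis, in many copies and under the human gene's own promoter, and SOD1G93A-Lepob/+ mice carried both. The study compared these genotypes to ask what lowering leptin changes in the fat of SOD1G93A mice. No group received an agent, and RNA came from the whole fat pad, so every cell type of the pad contributed to each value.

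The inguinal fat pad of a female mouse surrounds a mammary gland. In a mouse that has not been pregnant the gland is a tree of ducts with an inner layer of luminal cells, marked by Krt8 and Krt18, and an outer layer of basal, contractile cells, marked by Krt5 and Krt14. Milk genes such as Csn3 and Wap rise in pregnancy under prolactin and the transcription factor Elf5. In bulk RNA, fewer cells of a type and less RNA per cell cannot be told apart.

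Of the 10 genes, 9 passed the filter on low counts, and Wap had 0 counts in every library. Levels are given as CPM, a gene's counts per M (mega) of all counts of its library, scaled between libraries by TMM. Total counts lay between 36.8 and 61.9 M per library. Aqp5 had 477 to 3248 counts in a library, and the lowest count of any member that passed was 148 (Krt14 in Lepob/+ replicate 2), so that counting error was small beside the spread between mice. The replicates are labelled as separate mice. The adipocyte gene Adipoq lay between 1210 and 3260 CPM in the 16 libraries.

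Some libraries stood apart. SOD1G93A-Lepob/+ replicate 3 had 0 counts of Xist and 1756 counts of Y-linked genes, against 11895 to 28034 counts of Xist and 0 Y-linked counts in the other 15, so its sex did not match its label. SOD1G93A replicate 4 had a summed level of 456 CPM over 21 skin epidermis genes, against 30.8 to 79.8 CPM elsewhere. Lepob/+ replicate 4 had a summed level of 182000 CPM over 12 skeletal muscle genes and a TMM factor of 0.664, and WT replicate 3 had 4590 CPM of the same muscle genes.

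**Figure D1:**
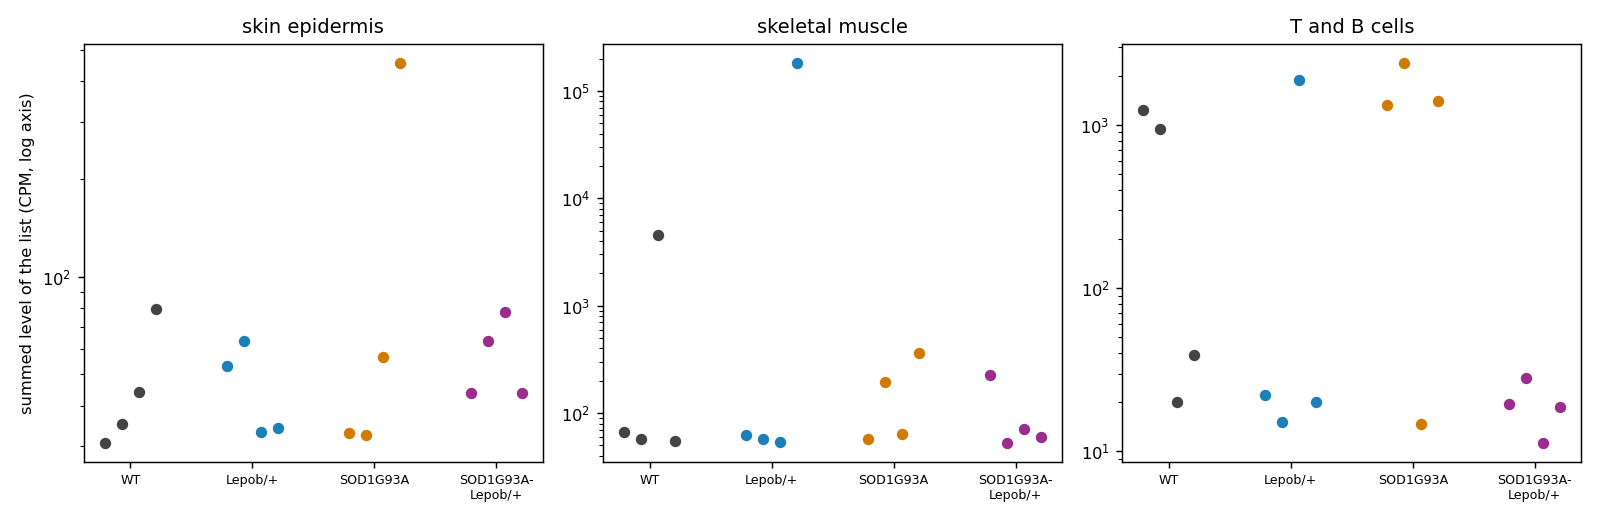
Summed level of 3 marker lists (CPM, log axis) in each library, by genotype, points ordered by replicate number from left to right. The epidermal list stood at 456 CPM in SOD1G93A replicate 4, the muscle list at 182000 CPM in Lepob/+ replicate 4, and the T and B cell list between 11.3 and 28.1 CPM in all 4 SOD1G93A-Lepob/+ libraries.

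Aqp5 (ENSMUSG00000044217) lies at chr15:99590782-99594829 on the plus strand of GRCm38. In WT it was measured at 54.9, 29.8, 79.4 and 62.1 CPM in replicates 1 to 4. In Lepob/+ it was 19.0, 21.5, 19.2 and 15.9 CPM. All 4 Lepob/+ values lay below the lowest WT value, with a mean of 18.9 ± 2.29 CPM (SD, n = 4) against 56.6 ± 20.6 CPM (SD, n = 4). In SOD1G93A the values were 15.3, 10.9, 11 and 75.0 CPM, and in SOD1G93A-Lepob/+ they were 57.9, 31.9, 13.9 and 80.8 CPM. In SOD1G93A, 3 libraries were among the lowest of the series, while replicate 4, the library with the epidermal transcripts, was in the range of the highest, and the SOD1G93A-Lepob/+ libraries spread over nearly the whole range, with the library without Xist as the lowest of that genotype. SOD1G93A had a mean of 28.1 ± 31.4 CPM (SD, n = 4), and SOD1G93A-Lepob/+ one of 46.1 ± 29.3 CPM (SD, n = 4). Over all libraries Aqp5 had a 7.43-fold range.

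The study had already reported Aqp5 as lower in Lepob/+ than in WT, as 1 of 5 genes, from these same libraries. The separation and the tests below therefore restate that difference and are no separate support for it. Of the 9 members that passed the filter, Aqp5 was the only one whose Lepob/+ and WT libraries did not overlap. In that direction 74 of 19736 genes (0.375%) had all 4 Lepob/+ libraries below all 4 WT libraries. The fitted log2 fold change of Aqp5 in Lepob/+ against WT was -1.58 (SE 0.63, unadjusted p = 0.0248), and it did not pass the adjustment over all genes (edgeR quasi-likelihood test, Benjamini-Hochberg adjusted p = 1). When DESeq2 was fitted on the 8 libraries of these genotypes only, the same fold change of -1.59 (SE 0.32) had an adjusted p of 0.00788, and Aqp5 was 1 of 5 genes called of 28721 (0.0174%). DESeq2 on all 16 libraries gave -1.59 with an adjusted p of 1, and edgeR on the same 8 libraries gave -1.59 with an unadjusted p of 0.000451 and an adjusted p of 1, so the call was made by only 1 of these 4 fits.

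The other comparisons of Aqp5 were not called either. SOD1G93A against WT gave -1.01 (SE 0.62, edgeR adjusted p = 0.998), SOD1G93A-Lepob/+ against SOD1G93A gave 0.72 (SE 0.62, edgeR adjusted p = 0.561), and SOD1G93A-Lepob/+ against WT gave -0.29 (SE 0.62, edgeR adjusted p = 0.971). The effect of the ob allele with the transgene exceeded that without it by 2.30 on the log2 scale (SE 0.88, unadjusted p = 0.0205, edgeR adjusted p = 0.564 for the interaction). SOD1G93A replicate 4 set the size of several of these values: without it, SOD1G93A against WT was -2.20 (edgeR adjusted p = 1), SOD1G93A-Lepob/+ against SOD1G93A was 1.90 (edgeR adjusted p = 0.423) and the interaction was 3.49 (edgeR adjusted p = 0.735). Without SOD1G93A-Lepob/+ replicate 4, SOD1G93A-Lepob/+ against SOD1G93A was 0.30 (edgeR adjusted p = 0.852) and SOD1G93A-Lepob/+ against WT was -0.71 (edgeR adjusted p = 0.996).

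**Figure D2:**
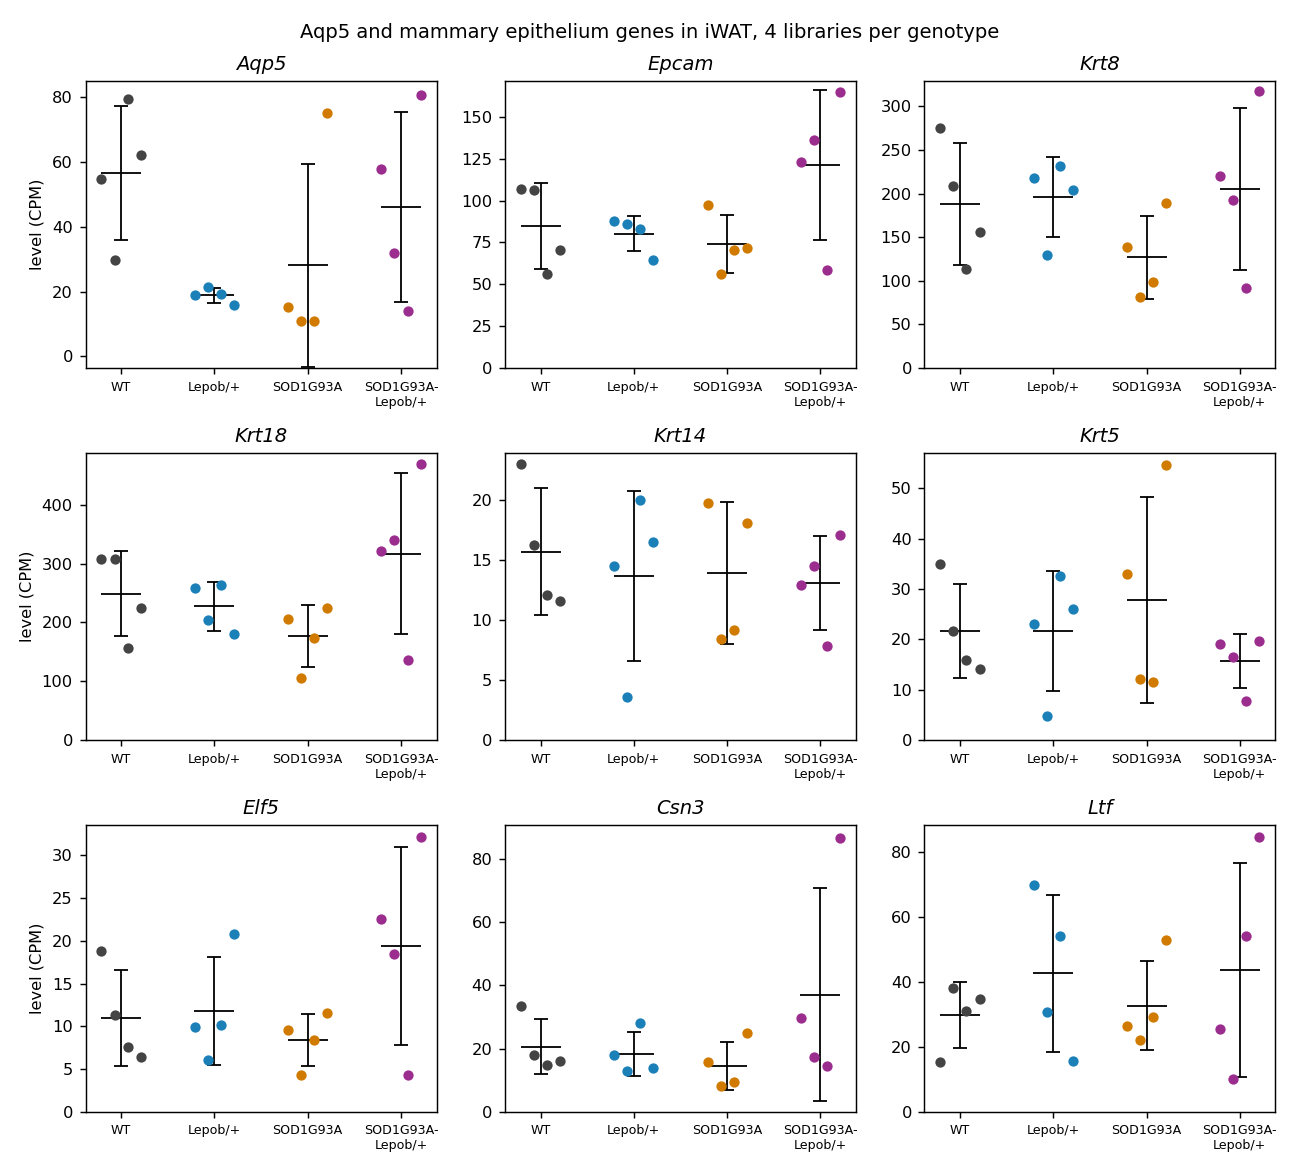
Level (CPM) of each member that passed the filter in each library, by genotype; points are libraries in order of replicate number, and the black bars are the mean ± SD of 4 libraries. The 4 Lepob/+ libraries of Aqp5 lie between 15.9 and 21.5 CPM, below all WT libraries (29.8 to 79.4 CPM), while the other members overlap between these genotypes.

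The luminal markers had fitted values nearer to 0 in Lepob/+ against WT, between -0.14 and 0.06 on the log2 scale for Epcam, Krt8 and Krt18. Epcam (ENSMUSG00000045394, chr17:87635979-87651129, plus strand) codes for an adhesion molecule of epithelial cells. It stood at 107, 106, 56.0 and 70.6 CPM in WT and at 87.7, 85.9, 82.8 and 64.7 CPM in Lepob/+. The groups overlapped, with means of 84.8 ± 25.5 and 80.3 ± 10.6 CPM (SD, n = 4 each). It stood at 97.6, 56.4, 70.4 and 71.8 CPM in SOD1G93A and at 123, 136, 58.5 and 165 CPM in SOD1G93A-Lepob/+, where 3 libraries exceeded every other library of the series and replicate 3, the one without Xist, lay with the lowest.

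Krt8 (ENSMUSG00000049382, chr15:101996698-102004482, minus strand) and Krt18 (ENSMUSG00000023043, chr15:102028180-102032027, plus strand) code for the keratins that pair in the filaments of luminal cells, and the genes are neighbours, 23.7 kb apart. Krt8 was 275, 209, 113 and 156 CPM for WT, 218, 130, 232 and 204 for Lepob/+, 139, 81.8, 99.1 and 189 for SOD1G93A and 220, 193, 91.6 and 317 for SOD1G93A-Lepob/+. Krt18 was 308, 307, 157 and 224 CPM for WT, 259, 204, 263 and 180 for Lepob/+, 206, 105, 174 and 224 for SOD1G93A and 322, 340, 136 and 470 for SOD1G93A-Lepob/+. Both were highest in SOD1G93A-Lepob/+ replicate 4 and lowest in SOD1G93A replicate 2, and every pair of genotypes overlapped. Krt8 shares 101 exon bases with Gm36026 on the other strand and has a named pseudogene, Krt8-ps, measured at 0.391 to 2.79 CPM; how reads of these were divided was not given in the sources used here.

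The sequences before the starts of the luminal genes that moved together, and of the basal gene Krt5, are shown so that they can be compared. They come from RefSeq windows on GRCm38.p6 that reach from 250 bases before a gene's start to 50 after it. Each was cut to the longest stretch before the start that no annotated exon of any gene covers. The stretches are written 5′ to 3′ on the gene's strand. Capitals mark the match to GGGCGG, the core of an Sp1 site, read on either strand.

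Epcam, chr17:87635729-87635978, plus strand: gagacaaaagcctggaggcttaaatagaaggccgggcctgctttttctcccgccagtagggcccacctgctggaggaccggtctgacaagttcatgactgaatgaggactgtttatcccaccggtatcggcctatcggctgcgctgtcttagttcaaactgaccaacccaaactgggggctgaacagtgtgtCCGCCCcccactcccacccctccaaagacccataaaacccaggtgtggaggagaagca

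Krt18, chr15:102027966-102028179, plus strand: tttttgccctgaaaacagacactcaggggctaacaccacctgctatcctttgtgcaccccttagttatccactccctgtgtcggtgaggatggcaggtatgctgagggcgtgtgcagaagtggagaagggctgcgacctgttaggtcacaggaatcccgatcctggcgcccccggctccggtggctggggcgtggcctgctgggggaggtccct

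Krt8, chr15:102004483-102004592, minus strand: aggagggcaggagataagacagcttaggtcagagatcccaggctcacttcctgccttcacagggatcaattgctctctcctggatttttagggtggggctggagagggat

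Krt5, chr15:101712906-101713155, minus strand: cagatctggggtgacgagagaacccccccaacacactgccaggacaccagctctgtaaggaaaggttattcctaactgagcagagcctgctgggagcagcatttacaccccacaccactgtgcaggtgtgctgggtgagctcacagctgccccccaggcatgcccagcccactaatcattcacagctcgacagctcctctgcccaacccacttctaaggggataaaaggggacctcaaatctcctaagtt

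Over the whole windows, on both strands, GGGCGG was found 1 time in Epcam and 3 times in Aqp5, and in none of the other members with a window, while 35.7% of 32851 windows in all held it. TATAAA was found in the window of Krt8 only, as 2 overlapping matches on opposite strands (13.6% of all windows). AGAACA, a hormone receptor half-site, was found in Krt18 only (19.0% of all windows), and TTCNNNGAA, the form of a STAT site, in no member's window (8.3% of all windows). The Aqp5 window was 79.7% G and C, and 98.8% of all windows had a lower share. Before the start in that window, the longest stretch outside annotated exons was 4 bases, and it is not shown. The share and the matches of Aqp5 were thus counted mainly over annotated exon sequence. These matches are descriptions of the letters in the windows; binding was not measured.

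The basal keratins Krt14 (ENSMUSG00000045545, chr11:100203162-100207548, minus strand) and Krt5 (ENSMUSG00000061527, chr15:101707070-101712898, minus strand) pair in the filaments of basal cells, both of ducts and of skin. Krt14 was 23.0, 16.3, 12.1 and 11.6 CPM for WT, 14.5, 3.62, 20 and 16.5 for Lepob/+, 19.8, 8.45, 9.15 and 18.1 for SOD1G93A and 12.9, 14.5, 7.82 and 17.1 for SOD1G93A-Lepob/+. Krt5 was 34.9, 21.7, 15.9 and 14.1 CPM for WT, 23.0, 4.77, 32.6 and 26.0 for Lepob/+, 32.9, 12.1, 11.6 and 54.6 for SOD1G93A and 19.0, 16.4, 7.75 and 19.6 for SOD1G93A-Lepob/+. The genotypes overlapped for both genes, and Lepob/+ replicate 2 was the lowest library for each. The ratio of Krt5 to Krt14 was 3.01 in SOD1G93A replicate 4 and between 0.991 and 1.66 in the other libraries; Krt10, a keratin of the upper epidermis, was 99.2 CPM in that library and between 1.99 and 4.55 CPM in the rest, and the part of skin in its Krt5 and Aqp5 levels was not tested. Krt5 shares 129 exon bases with Gm44323 on the other strand.

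Elf5 (ENSMUSG00000027186, chr2:103411688-103450989, plus strand), the transcription factor of the luminal alveolar lineage, was 18.8, 11.3, 7.57 and 6.35 CPM for WT, 9.90, 6.01, 10.2 and 20.8 for Lepob/+, 9.59, 4.29, 8.34 and 11.5 for SOD1G93A and 22.5, 18.5, 4.35 and 32.2 for SOD1G93A-Lepob/+. Csn3 (ENSMUSG00000001622, chr5:87925579-87932665, plus strand), which codes for kappa casein, was 33.6, 18.1, 14.9 and 15.9 CPM for WT, 17.9, 13.0, 28.2 and 13.8 for Lepob/+, 15.8, 8.09, 9.36 and 24.8 for SOD1G93A and 29.7, 17.2, 14.6 and 86.7 for SOD1G93A-Lepob/+. SOD1G93A-Lepob/+ replicate 4 was the highest library for both, with SOD1G93A replicate 2 the lowest for both. Ltf (ENSMUSG00000032496, chr9:111019271-111042767, plus strand), the iron-binding lactoferrin of milk and of neutrophil granules, was 15.2, 38.0, 30.9 and 34.7 CPM for WT, 69.8, 30.8, 54.1 and 15.6 for Lepob/+, 26.4, 22.2, 29.2 and 52.7 for SOD1G93A and 25.5, 10.2, 54.2 and 84.6 for SOD1G93A-Lepob/+. Its order of libraries was unlike that of the other members. The neutrophil gene S100a8 stood at 0.341 to 2.27 CPM, and the neutrophil list as a whole had 8 of 13 genes passing the filter. Its summed levels were 36.5 to 89.2 CPM, of which Mmp9 made 24.1 to 71.2 CPM. The part of neutrophils in the Ltf level was not tested.

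Wap (ENSMUSG00000000381, chr11:6635482-6638637, minus strand), the whey acidic protein of late pregnancy and lactation, had 0 counts in all libraries, which allows a mean level of up to 0.00436 CPM (3 counts over the 16 libraries, counting error only). Of the 19 milk genes listed, 7 did not pass the filter, among them the caseins Csn1s1 and Csn2. Lalba, which codes for a subunit of the enzyme that makes milk sugar, passed with at most 2.56 CPM. Levels of different genes can be compared only per length. As a mean over the libraries in CPM per kb of exon, Krt18 was at 169 and Krt8 at 91.5, Epcam at 41.0, Aqp5 at 14.4, Ltf at 10.8, Krt5 at 9.87, Krt14 at 8.02, Csn3 at 5.44 and Elf5 at 2.15.

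With edgeR, 0% of the 19736 genes tested, and none of the members, were called at an adjusted p under 0.05 in Lepob/+ against WT, where 862 genes had an unadjusted p under 0.05, 1 of them a member. In SOD1G93A against WT the same held, with 505 genes and no member at an unadjusted p under 0.05. In SOD1G93A-Lepob/+ against SOD1G93A none was called and 3261 genes had an unadjusted p under 0.05, of which 827 were higher and 2434 lower. Among the higher ones were the members Epcam, Krt18, Elf5 and Csn3. The log2 fold changes there were 0.70 for Epcam (SE 0.29), 0.84 for Krt18 (SE 0.34), 1.20 for Elf5 (SE 0.54) and 1.35 for Csn3 (SE 0.54), with edgeR adjusted p-values of 0.262 to 0.293. Krt8 had 0.69 (SE 0.37), Ltf 0.42 (SE 0.57), Krt14 -0.08 (SE 0.44) and Krt5 -0.83 (SE 0.58). Without SOD1G93A-Lepob/+ replicate 4, Csn3 was 0.50 and Krt8 0.40, and without SOD1G93A replicate 4, Krt5 was -0.26. Epcam was 0.52, Krt18 0.59 and Elf5 0.84 without SOD1G93A-Lepob/+ replicate 4. They were 0.93, 1.09 and 1.54 without SOD1G93A-Lepob/+ replicate 3, the library without Xist. DESeq2 on the compared genotypes called 1750 of 22509 genes there (7.77%) and none of the 9 members, whose adjusted p-values were 0.127 to 0.918.

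The median log2 fold change of the 9 members was 0.70 in this comparison, against 0 over all genes tested. It was -0.08 in Lepob/+ against WT, -0.39 in SOD1G93A against WT and 0.35 in SOD1G93A-Lepob/+ against WT, where edgeR also called none (935 genes at an unadjusted p under 0.05, 0 of the members) and DESeq2 on the compared genotypes 353. Beside these luminal values, the T and B cell genes stood at summed levels of 11.3 to 28.1 CPM in that genotype and of 14.8, 1320, 1410 and 2400 CPM in SOD1G93A, and the 12 adipocyte genes stood at summed levels of 30200 to 33000 CPM and of 15600, 19700, 20800 and 32400 CPM, with 11 positive fold changes and a median of 0.43; the part of either in these differences was not tested. Without SOD1G93A-Lepob/+ replicate 3, SOD1G93A replicate 4 and Lepob/+ replicate 4, left out together after seeing the data, the median of the members in this comparison was 1.20 (8 positive and 1 negative) and that of the adipocyte genes 0.24.

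**Figure D3:**
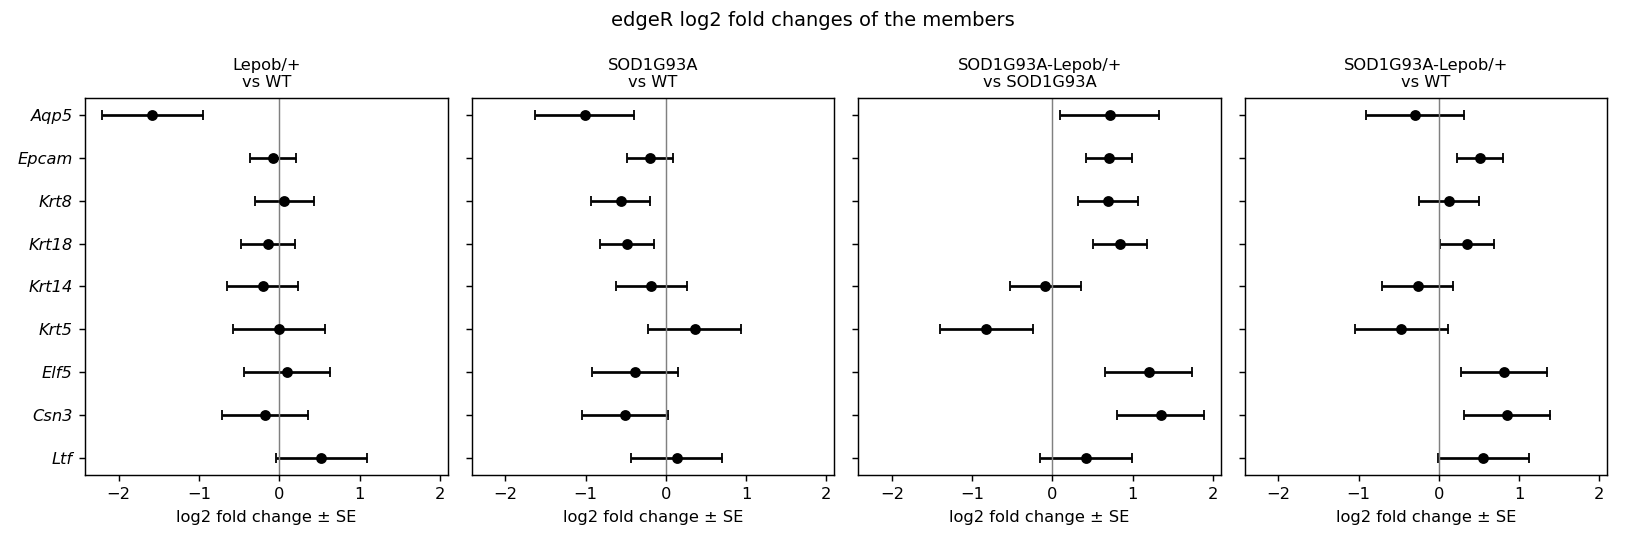
Log2 fold change ± SE of each member that passed the filter, from edgeR on all 16 libraries, in 4 comparisons of genotypes. Aqp5 stands apart at -1.58 in Lepob/+ against WT, and Epcam, Krt8, Krt18, Elf5, Csn3 and Aqp5 lie between 0.69 and 1.35 in SOD1G93A-Lepob/+ against SOD1G93A; none was called.

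Among the members other than Aqp5, the highest r were those of pairs within a layer of the duct. Over the 16 libraries Krt14 and Krt5 had r = 0.93 on the log2 CPM scale, Epcam and Krt18 0.92, Krt8 and Krt18 0.89, and Krt8 and Elf5 0.85. Pairs of a luminal marker (Epcam, Krt8 or Krt18) and a basal one (Krt14 or Krt5) ranged from 0.22 (Epcam and Krt5) to 0.66 (Krt8 and Krt14), and after subtraction of the genotype means Krt8 had 0.83 with Krt5 and 0.79 with Krt14. Ltf had between -0.15 and 0.38 with the others. The values share libraries, scaling and the genotypes, and are given as descriptions with no test.

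The r of Aqp5 was 0.66 with Csn3, 0.56 with Krt18, 0.52 with Krt8, 0.47 with Elf5, 0.38 with Epcam, 0.33 with Krt14, 0.32 with Krt5 and 0.13 with Ltf (n = 16 libraries). After the genotype means were subtracted, these were 0.68, 0.52, 0.58, 0.50, 0.32, 0.29, 0.48 and 0.27. Without the 2 libraries farthest from the median of the other gene, r was 0.54 with Csn3, 0.33 with Krt18, 0.33 with Krt8, 0.23 with Elf5 and 0.23 with Epcam. In the same way it was 0.28 with Krt14, 0.18 with Krt5 and -0.01 with Ltf. Among 19735 genes ordered by their r with Aqp5, Csn3 was number 45, Krt18 number 179, Krt8 number 250 and Epcam number 968, in the order over all 16 libraries. Elf5 was number 430, Krt14 number 1354, Krt5 number 1437 and Ltf number 4526. In WT the order went the other way: replicates 3 and 4 had the lowest Epcam and the highest Aqp5 of that genotype.

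**Figure D4:**
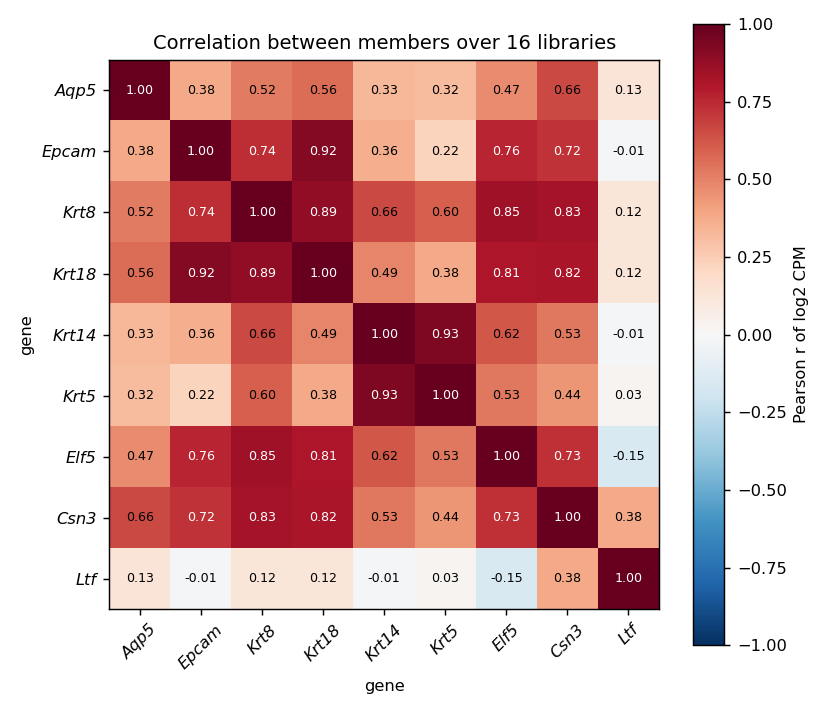
Pearson r of log2 CPM between each pair of members that passed the filter, over 16 libraries. The luminal genes Epcam, Krt8, Krt18, Elf5 and Csn3 form a block with r of 0.72 to 0.92, Krt14 and Krt5 have 0.93, and the row of Aqp5 reaches 0.66 at most.

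The genes most like Aqp5 over the 16 libraries were Gipc2 and Slc5a5, each with r = 0.84, followed by Dus2 (r = 0.80), Msantd1, Gatb, Bnipl, Cyp3a57, Folr1, 1810010D01Rik and Stc2 (r = 0.74). Slc5a5 codes for the sodium iodide symporter, which moves iodide into thyroid and into mammary cells. It was 209, 68.9, 54.5 and 78.7 CPM for WT, 46.2, 37.3, 64.5 and 52.1 for Lepob/+, 22.2, 10.8, 20.1 and 120 for SOD1G93A and 155, 67.8, 25.7 and 173 for SOD1G93A-Lepob/+. Replicates 1 to 3 of SOD1G93A were the lowest of the series for Slc5a5 and replicate 4 was high, as for Aqp5 within that genotype. Its r with the epithelial score described next was 0.75, that of Gipc2 was 0.54 and that of Aqp5 itself 0.49. The genes most like the score were Papln and Tyro3 (each r = 0.92), Klc3, Krt8-ps, Slc5a1, C77080, Trim29, Gna14, Ano1 and Serpinb5 (r = 0.89). The lists of 10 for Aqp5 and for the score had no gene in common. Lists this short, taken from 19735 genes, can share none even for related profiles, so nothing is concluded from it.

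The epithelial content was summarised as the mean log2 CPM of Epcam, Krt8, Krt18, Krt14 and Krt5. This score of 5 genes had means ± SD of 6.00 ± 0.48 for WT, 5.87 ± 0.57 for Lepob/+, 5.74 ± 0.58 for SOD1G93A and 6.02 ± 0.65 for SOD1G93A-Lepob/+ (n = 4). The means of the score thus differed between genotypes by less than their spread. The score joins genes that moved in opposite directions. In SOD1G93A-Lepob/+ against SOD1G93A the log2 fold changes were 0.70 for Epcam, 0.69 for Krt8 and 0.84 for Krt18. They were -0.83 for Krt5 and -0.08 for Krt14, and edgeR called none. Similar means of the score therefore do not show that luminal or basal content was alike. The r of the score with Aqp5 was 0.49, and 0.49 after subtraction of the genotype means. Fitted together with the genotypes, Aqp5 had a slope of 0.83 log2 units for each unit of the score (SE 0.43, unadjusted p = 0.0736), which was not called (edgeR adjusted p = 0.488), while 71 of 19736 genes (0.36%) had a called slope.

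At equal score, Aqp5 in Lepob/+ against WT was -1.50 (SE 0.58, unadjusted p = 0.0219, edgeR adjusted p = 1), close to the -1.58 without the score. The other differences at equal score were -1.14 (SE 0.57) in SOD1G93A against WT, 0.54 (SE 0.57) in SOD1G93A-Lepob/+ against SOD1G93A and -0.60 (SE 0.58) in SOD1G93A-Lepob/+ against WT, with edgeR adjusted p-values of 0.604 to 0.906 and 0% of genes called in each of the 4 comparisons. Leaving out SOD1G93A replicate 4 moved the value in SOD1G93A against WT to -2.08 (edgeR adjusted p = 0.914) and that in SOD1G93A-Lepob/+ against SOD1G93A to 1.65 (edgeR adjusted p = 0.227). In SOD1G93A-Lepob/+ against SOD1G93A the value also depended on the genes of the score: it was -0.01 (edgeR adjusted p = 0.994) with Epcam, Krt8 and Krt18, 0.19 (edgeR adjusted p = 0.911) with Epcam alone and 0.97 (edgeR adjusted p = 0.467) with Krt14 and Krt5. Without the same 3 libraries as above it was 2.23 with the score of 5 genes (edgeR adjusted p = 0.23) and 2.32 with Epcam, Krt8 and Krt18 (edgeR adjusted p = 0.515). In Lepob/+ against WT the same changes of score and libraries gave -1.38 to -1.73 (edgeR adjusted p = 1 in each). With 1 library left out, the value with the score of 5 genes ranged more widely. It was -2.03 without Lepob/+ replicate 2 and -1.04 without WT replicate 3 (edgeR unadjusted p = 0.108), the WT library with muscle transcripts.

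The ratio of Aqp5 to Epcam puts both genes together in single libraries. It was 0.515, 0.281, 1.42 and 0.879 in WT, and 0.216, 0.250, 0.232 and 0.245 in Lepob/+. These groups did not overlap, and Lepob/+ varied least (0.236 ± 0.0151, SD, n = 4, against 0.774 ± 0.496 in WT). It was 0.157, 0.193, 0.157 and 1.04 in SOD1G93A and 0.469, 0.235, 0.237 and 0.491 in SOD1G93A-Lepob/+, where both groups overlapped through SOD1G93A replicate 4. The separation of Lepob/+ from WT depended on the divisor. The ratio of Aqp5 to Krt18 overlapped, at 0.097 in WT replicate 2 and 0.105 in Lepob/+ replicate 2. The log2 CPM of Aqp5 minus the score of 5 genes overlapped too, at -1.34 and -0.62 in the same libraries.

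**Figure D5:**
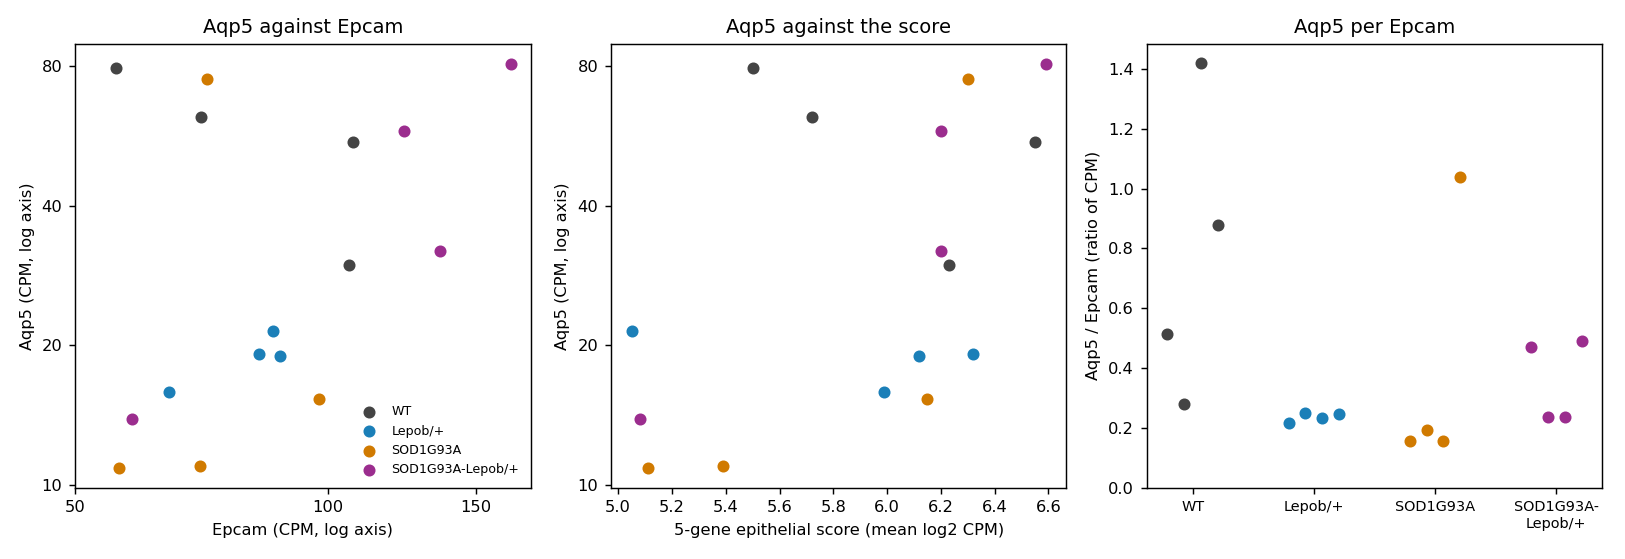
Aqp5 level (CPM, log axis) against Epcam (CPM, log axis) and against the score of 5 genes (mean log2 CPM), and the ratio of Aqp5 to Epcam by genotype, 1 point per library. At Epcam levels of 56.0 to 107 CPM, the WT libraries have Aqp5 of 29.8 to 79.4 CPM and the Lepob/+ libraries 15.9 to 21.5 CPM.

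A longer list of 26 luminal genes, all of which passed the filter, was examined next. In SOD1G93A-Lepob/+ against SOD1G93A, 23 had a positive and 3 a negative fold change. The median of the list was 0.66 on the log2 scale against 0 over all genes tested, of which 50.1% were positive. At an unadjusted edgeR p under 0.05, 5 of the list were positive and 1 was negative. Over all 19736 genes tested, 827 were positive and 2434 negative at that threshold. None of the list was called by edgeR. Without the 3 libraries left out above the counts were again 23 and 3, with a median of 0.93. Among the most abundant, Krt19, a luminal keratin, had 0.97 (SE 0.40), Krt7 0.81 (SE 0.36), Wfdc2, a secreted protease inhibitor, 1.15 (SE 0.45) and Prlr, the prolactin receptor, 0.44 (SE 0.65). In Lepob/+ against WT the same list had 6 positive and 20 negative values with a median of -0.13 (12 and 14, median -0.06, without those 3 libraries), and Krt19 had -0.02 (SE 0.40). In SOD1G93A against WT the list had 5 positive and 21 negative values with a median of -0.27, while 53% of all genes tested were positive. In SOD1G93A-Lepob/+ against WT the list had 22 positive and 4 negative values with a median of 0.28, while 51% of all genes tested were positive. None of the list was called by edgeR in these comparisons. Esr1, the oestrogen receptor, named after its values were seen, was 49.6, 62.3, 6.17 and 22 CPM in WT and 9.59, 6.4, 6.39 and 7.46 in Lepob/+, groups that overlapped through WT replicate 3, and its r with Aqp5 was -0.22. Pgr, the progesterone receptor, also named after its values were seen, had an r of 0.63 with Aqp5 and stood at 24.9, 36.7, 41.0 and 70.8 CPM in WT replicate 1, SOD1G93A replicate 4 and SOD1G93A-Lepob/+ replicates 1 and 4, where Aqp5 was 54.9, 75.0, 57.9 and 80.8 CPM. WT replicates 3 and 4 had as much Aqp5 with 8.99 and 10 CPM of Pgr.

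Of 16 basal and myoepithelial genes, 15 passed, and 9 were positive and 6 negative in SOD1G93A-Lepob/+ against SOD1G93A (median 0.18), with none called by edgeR. Its most abundant members are also genes of smooth muscle or of other cells. Their r with the score was 0.27 for Acta2, the smooth muscle actin, 0.03 for Oxtr, the oxytocin receptor, 0.05 for Dst and -0.08 for Mylk. Of 19 milk genes 12 passed, with 9 positive and 3 negative values and a median of 0.62 in that comparison, none called by edgeR. Slc12a2, a chloride transporter of secretory cells, had r = 0.67 with Aqp5 and 0.77 with the score. Of the other most abundant genes of that list, Lcn2 had 0.33 and 0.88, Xdh -0.02 and -0.35, and Glycam1 -0.1 and 0.31, in the same order. Glycam1, also a gene of lymph node venules, stood at 203 to 614 CPM in 6 libraries (WT replicates 1 and 2, Lepob/+ replicate 3, SOD1G93A replicates 1, 2 and 4), the same 6 in which the T and B cell genes summed to 948 CPM or more, and at most at 0.0603 CPM in the rest.

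Of 11 other aquaporins, 7 passed the filter. Their r with Aqp5 lay between -0.11 (Aqp4) and 0.17 (Aqp2 and Aqp7). Aqp1, the channel of vessel walls, and Aqp7, the glycerol channel of adipocytes, were the most abundant at 323 to 912 and 91.3 to 223 CPM, and in Lepob/+ against WT they had 0.06 (SE 0.26) and -0.04 (SE 0.25). Of 9 salivary and sweat gland genes, tissues in which Aqp5 is also known, 3 passed, and Foxi1 reached at most 8.85 CPM; the summed level of the list was 205 to 495 CPM, of which Amy1, an amylase gene, made 202 to 489 CPM.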

How the data were processed

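RNA from inguinal fat of 16 mice, 4 per genotype, was sequenced by the study. The authors trimmed reads with fastp, aligned them to mm10 with HISAT2 2.1.0 and counted them per gene with featureCounts 2.0.2; the strand setting and annotation release are not given in the sources used here. The deposited values are raw counts, not normalized, for 54752 Ensembl IDs, 54723 of them paired with a symbol. Coordinates are those of GENCODE M21 (GRCm38), and promoter windows those of RefSeq.

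edgeR 4.0.16 under R 4.3.3 served for the tests: filterByExpr (min.count 10, min.total.count 15) left 19736 genes, which were scaled by TMM and tested by robust quasi-likelihood F tests in 1 fit of all 16 libraries, with Benjamini-Hochberg adjustment over all genes and a threshold of 0.05. Log2 CPM used a prior count of 1. A second fit added the epithelial score as a covariate. DESeq2 1.42.0, the tool of the study, was an alternative. The fit was tested on simulated data. The members and gene lists were chosen with earlier results of these data known. Beside all members, genes named are the 4 most abundant that passed in each list described, the 10 most like Aqp5 and the 10 most like the score, the aquaporins that passed, and genes marked as named after their values were seen; Krt10, S100a8, Lalba, Csn1s1, Csn2 and Foxi1 also were. Depth and the spread of 4 mice set the precision. Lists not described served only as checks.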

Additional observations from a re-analysis of the deposited data

Results flagged for a closer look

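Aqp5 in SOD1G93A replicate 4 stood far from the other libraries of its genotype: it was 75.0 CPM, the nearest was 15.3 CPM, and this gap was 0.93 of the range of the 4 libraries, above Dixon's limit for 4 values. Of 36 sets tested (9 genes in 4 genotypes) 1 was singled out in this way, and chance alone singles out about 1 in 20. The same library held the epidermal transcripts (456 CPM against 30.8 to 79.8 CPM elsewhere), and their part in the Aqp5 level was not tested.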

How the results depend on the processing

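Aqp5 in Lepob/+ against WT kept its direction under every alternative run, between -1.80 and -1.37 with 1 library left out, and was called only by DESeq2 on the compared genotypes (-1.59, adjusted p = 0.00788). No other member was called under any alternative. Genes called by edgeR, 0 in each comparison, became 2 in SOD1G93A-Lepob/+ against SOD1G93A and 2 in SOD1G93A-Lepob/+ against WT when only the compared genotypes were fitted. In the order Lepob/+ and SOD1G93A against WT, then SOD1G93A-Lepob/+ against SOD1G93A and against WT, DESeq2 called 5, 14, 1750 and 353 genes on the compared genotypes, and 3, 4, 549 and 36 on all 16 libraries, with 52 for the interaction. Calls by edgeR with 1 library left out ranged from 0 to 1 in SOD1G93A against WT (1 without SOD1G93A replicate 4), and, always highest without SOD1G93A-Lepob/+ replicate 3, from 0 to 3 in SOD1G93A-Lepob/+ against SOD1G93A, from 0 to 2 in SOD1G93A-Lepob/+ against WT and from 0 to 2 for the interaction. The cause of these moves was not tested.

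Leaving out SOD1G93A-Lepob/+ replicate 3, SOD1G93A replicate 4 and Lepob/+ replicate 4 together, chosen after seeing the data, gave 1 called gene in SOD1G93A against WT, 3 in SOD1G93A-Lepob/+ against SOD1G93A and 2 in SOD1G93A-Lepob/+ against WT. Aqp5 was then -1.53 in Lepob/+ against WT, -2.20 in SOD1G93A against WT, 2.20 in SOD1G93A-Lepob/+ against SOD1G93A and 3.73 for the interaction (edgeR adjusted p = 0.0687), and at equal score 2.23 in SOD1G93A-Lepob/+ against SOD1G93A and 0.01 in SOD1G93A-Lepob/+ against WT; with the luminal score these were 2.32 and 0.08. On all 16 libraries, Aqp5 at equal luminal score was -0.01 in SOD1G93A-Lepob/+ against SOD1G93A. Without the 3 libraries, signs also turned for Elf5 in Lepob/+ against WT (-0.35), for Krt5 (-0.22) and Ltf (-0.21) in SOD1G93A against WT, for Krt14 in SOD1G93A-Lepob/+ against SOD1G93A (0.26) and for the Krt5 interaction (0.09).

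With 1 library left out, uncalled values changed sign over these ranges. In Lepob/+ against WT, Epcam ranged from -0.23 to 0.04, Krt8 from -0.12 to 0.29, Krt14 from -0.47 to 0.11, Krt5 from -0.29 to 0.33, Elf5 from -0.35 to 0.47 and Csn3 from -0.48 to 0.15. In SOD1G93A against WT, Krt14 ranged from -0.41 to 0.05, Krt5 from -0.21 to 0.68 and Ltf from -0.21 to 0.27. In SOD1G93A-Lepob/+ against SOD1G93A, Krt14 ranged from -0.26 to 0.14 and Ltf from -0.12 to 0.76. In SOD1G93A-Lepob/+ against WT, Aqp5 ranged from -0.71 to 0.01, Krt8 from -0.16 to 0.37 and Csn3 from -0.01 to 1.18. For the interaction, Krt14 ranged from -0.19 to 0.39 and Ltf from -0.64 to 0.25. The r of Aqp5 with Epcam ranged from 0.23 to 0.57. At equal score, Aqp5 ranged from -2.03 to -1.04 in Lepob/+ against WT, from -2.08 to -0.72 in SOD1G93A against WT, from 0.31 to 1.65 in SOD1G93A-Lepob/+ against SOD1G93A and from -0.90 to -0.22 in SOD1G93A-Lepob/+ against WT, without a change of sign.

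The replicate numbers are shared by the genotypes, and the labels do not say whether they pair the mice. Of 24 same-numbered pairs, 5 had residuals with r over 0.1 and 8 below -0.1. WT and SOD1G93A had 0.41, 0.41, 0.52 and -0.31 in replicates 1 to 4. Such values cannot show whether mice were paired. With the replicate number as a block, edgeR called 0 genes in each comparison, Aqp5 was -1.49 in Lepob/+ against WT, -1.43 in SOD1G93A against WT, 0.94 in SOD1G93A-Lepob/+ against SOD1G93A, -0.49 in SOD1G93A-Lepob/+ against WT and 2.44 for the interaction, and Krt14 was 0.00 in SOD1G93A-Lepob/+ against SOD1G93A. With block and score together, Aqp5 was -1.45, -1.37, 0.82 and -0.55 in the same order.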
